A study of Mus musculus with 9 samples.

Results

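Ferroptosis is a form of cell death in which iron drives the peroxidation of polyunsaturated membrane lipids. Cells resist it by importing cystine, building glutathione from it and letting the selenoenzyme GPX4 use that glutathione to reduce lipid peroxides. Iron uptake and storage, heme breakdown and the reductases under the transcription factor NRF2 set how much oxidant is formed and removed, and tumor cells often depend on these defenses. The 10 genes described here were a fixed set of symbols found among the 22609 genes of the count files. They were Slc7a11, Gclc and Gclm of the cystine and glutathione arm, Gpx4 and Acsl4 of lipid peroxidation, Hmox1, Tfrc and Fth1 of iron and heme, and Nqo1 and Txnrd1 of the NRF2 reductases.

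Their RNA was measured in 9 tumor libraries, 3 per group, from syngeneic BALB/c mice that carried 4T1 cells, a mouse mammary carcinoma line labelled as triple-negative breast cancer (TNBC). In the LFD group mice ate a low-fat diet with 10% of its energy from fat and received vehicle, 0.3% hydroxy propyl cellulose. In the HFD group mice ate a high-fat diet with 60% of its energy from fat and received the same vehicle, and in the HFD + EC359 group they ate the high-fat diet and received EC359, an inhibitor of the leukemia inhibitory factor receptor (LIFR), at 5 mg/kg by intraperitoneal injection on 5 days a week. Feeding began 6 weeks before 500000 cells were placed in the mammary fat pad, and drug or vehicle was given once tumors had formed. Host age and sex were not given in the sources used here, and no label said whether libraries of a group came from separate mice, so p-values measure the spread between these libraries, which may be technical. The design poses 2 questions for these genes, which differed with the diet and which differed with LIFR inhibition on the high-fat diet, and the comparison of HFD + EC359 with LFD completes the set.

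Libraries held 5085357 to 6509130 counts in the LFD group, 7314704 to 7922852 in the HFD group and 8043649 to 9751201 in the HFD + EC359 group. All 10 genes were among the 13366 that passed the filter on low counts. Values are CPM, a gene's counts per 1e+06 of a library's counts in genes that passed the filter, scaled by the library's TMM normalization factor. A level is compared between genes only as CPM per kilobase (kb) of exon. At these depths 3 counts, the most that a count of 0 allows, equal 0.308 to 0.59 per 1e+06 of the library totals, without that factor. This floor covers counting error only. These were whole tumors, in which fewer cells of a type and less RNA per cell cannot be told apart. The carcinoma keratins Krt8 and Krt18 were well measured, whereas Krt19 and Krt7 did not pass the filter, and the summed level of 6 carcinoma markers was 1115 to 1136 CPM in LFD, 705 to 715 in HFD and 763 to 792 in HFD + EC359. Krt8 and Krt18 fell with diet by 0.55 and 0.73 on the log2 scale, Epcam and Cdh1 fell by 2.43 and 2.27 and rose with EC359 by 1.90 and 1.75, and the median over the 4 tested was -1.50 with diet and 0.93 with EC359. The libraries also differed in base composition. Genes of at most 45.8% GC, set against genes of at least 55.4% GC, lay at -0.54 to -0.32 on the log2 scale in LFD, 0.10 to 0.16 in HFD and 0.25 to 0.30 in HFD + EC359, and so results for genes of extreme GC are also given after each library's trend on GC and length was removed.

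Some control of these genes is written in short RNA and DNA sequences. Iron-responsive elements are RNA hairpins bound by iron regulatory proteins when iron is scarce, which blocks translation when the hairpin lies in the 5′ UTR and protects the transcript when it lies in the 3′ UTR. A search for C, 5 bases, CAGTG and 6 bases, with the 5 bases on each side of the loop able to pair, found such letters in transcripts of 255 of 22611 genes, 1.13%. Of the 10 genes, Tfrc held 4 in its 3′ UTR and Fth1 held 1 in its 5′ UTR, and the other 8 held none. They are shown in mm9, 5′ to 3′, with the loop in capitals, beside the ferritin light chain Ftl1 and the iron exporter Slc40a1, which each held 1 in the 5′ UTR.
Tfrc, chr16:32631307-32631332, plus strand: ttatcggaagCAGTGCcttccataat
Tfrc, chr16:32631686-32631711, plus strand: ttatcgggagCAGTGTcttccataat
Tfrc, chr16:32631751-32631776, plus strand: atatcggagaCAGTGAtctccatatg
Tfrc, chr16:32631798-32631823, plus strand: ttatcgggaaCAGTGTttcccataat
Fth1, chr19:10057224-10057249, plus strand: cctgcttcaaCAGTGCttgaacggaa
Ftl1, chr7:52715150-52715175, minus strand: cttgcttcaaCAGTGTttgaacggaa
Slc40a1, chr1:45982311-45982336, minus strand: acttcagctaCAGTGTtagctaagtt

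Promoter windows from 250 bases before to 50 bases after a start site were held by RefSeq (GRCm38.p6) for 8 of the 10 genes, in 15 windows. Hmox1 and Gclc had no entry. They were searched on both strands for the antioxidant response element, through which NRF2 acts (TGACNNNGC, in 12.4% of 32851 mouse windows), the amino acid response element read by ATF4 (TGATGNAA, in 3.97%) and the AP-1 site (TGACTCA, in 5.20%, with none in these 15). Slc7a11 held 2 amino acid response elements, 66 and 47 bases before the start site and on opposite strands with 11 bases between them, while Gclm and 1 of the windows of Txnrd1 each held 1 antioxidant response element, 134 and 92 bases before the start. A match describes letters and not a bound site. The matches are in capitals below.
Slc7a11, chr3:50443638-50443694, minus strand: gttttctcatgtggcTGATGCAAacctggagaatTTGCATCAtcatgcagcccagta
Gclm, chr3:122245408-122245447, plus strand: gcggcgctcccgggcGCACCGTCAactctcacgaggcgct
Txnrd1, chr10:82859099-82859138, plus strand: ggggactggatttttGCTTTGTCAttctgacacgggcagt

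With the high-fat diet, Slc7a11, Hmox1 and Acsl4 rose and Gpx4 and Txnrd1 fell, so that 5 of the 10 genes passed an adjusted p of 0.05 where 51.8% of all genes tested did (3 higher beside 26.0%, 2 lower beside 25.8%). With EC359 on the high-fat diet, Hmox1, Slc7a11, Gclm, Txnrd1 and Fth1 fell and Tfrc and Gpx4 rose, 7 of 10 beside 26.6% of all genes (5 lower beside 13.9%, 2 higher beside 12.7%). Against LFD, the HFD + EC359 libraries were higher for Slc7a11, Acsl4 and Tfrc and lower for Hmox1, Txnrd1, Gclm and Gclc, 7 of 10 beside 58.3% (3 higher beside 29.2%, 4 lower beside 29.1%). The largest of these changes were those of Slc7a11 with diet and of Hmox1 with EC359. The median log2 change over the 10 genes was -0.04, -0.14 and -0.02 in the order above, beside 0.01 over all genes in each comparison. By the fold of over 2 and adjusted p under 0.01 that the study's methods set, only Slc7a11 passed in HFD against LFD, where 5.71% of all genes did, and 0 of 10 passed with EC359 (3.43% of all genes) or in HFD + EC359 against LFD (5.09%). With the GC and length trend removed Slc7a11 was 1.72-fold higher with diet, so that it no longer passed this rule. The comparisons share libraries, HFD in the first and second, and are set side by side on that understanding.

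**Figure D1:**
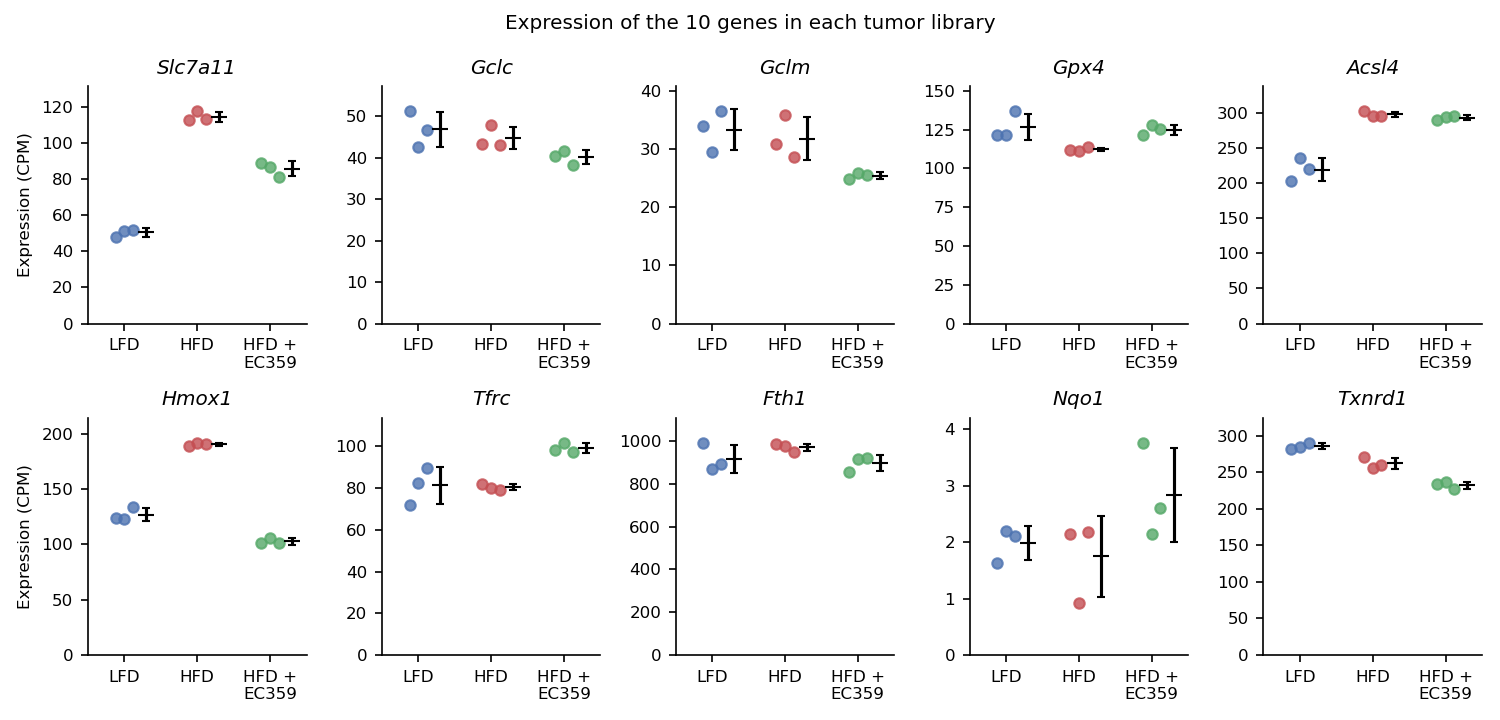
Expression of the 10 genes in CPM (vertical axes, from 0, each with its own scale) in the 3 libraries of each group (points), with the mean and SD as a dash and bar. Slc7a11 and Hmox1 separate the 3 groups with no overlap, with HFD highest for both, while the Nqo1 points of the 3 groups overlap and lie under 4 CPM.

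Slc7a11 encodes xCT, the cystine-importing subunit of the cystine and glutamate exchanger (mm9 chr3:50168858-50247535, minus strand). It was at 47.9, 51.6 and 52.2 CPM in the LFD libraries, 113, 118 and 113 in HFD and 89.4, 87.0 and 81.4 in HFD + EC359. Each group stood apart from the others, with LFD lowest and HFD highest. HFD exceeded LFD by 1.18 ± 0.06 (SE) on the log2 scale, 2.26-fold (edgeR adjusted p = 4.72e-17). EC359 lowered it by 0.42 from HFD (log2 change -0.42 ± 0.05, adjusted p = 7.81e-08), and the treated tumors remained 1.69-fold above LFD (adjusted p = 2.27e-12). The gene is long and poor in GC (40.7%), and after removal of each library's GC and length trend the change with diet was 0.78 (adjusted p = 5.25e-14), that with EC359 was -0.51 (adjusted p = 5.7e-11) and that of HFD + EC359 against LFD was 0.27 (adjusted p = 0.000278).

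Slc3a2, the heavy chain that pairs with xCT, did not pass in any comparison. It was at 168 to 179 CPM in LFD, 171 to 183 in HFD and 172 to 179 in HFD + EC359, ranges that overlapped throughout, and its log2 change with diet was 0.02 ± 0.05 (adjusted p = 0.71). After removal of the GC and length trend that change was 0.14 (adjusted p = 0.0072). ATF4, the factor that reads the amino acid response element, is known for raising Slc7a11, Trib3, Chac1, Ddit4 and Sesn2 when amino acids run short. In the same libraries the Atf4 transcript did not pass with diet (-0.06), Trib3 and Ddit4 fell by 0.87 and 0.31, and Chac1 (-0.21) and Sesn2 (-0.26) did not pass. The fall of Ddit4 did not pass once the GC and length trend was removed. These genes of the fixed lists were picked out for their known link to ATF4 after their values were seen, and the part of ATF4 in the Slc7a11 result was not tested.

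Markers of several other cell types moved along with Slc7a11. All 10 endothelial markers rose with the diet and 8 of 10 fell with EC359, and their summed level was 323 to 333 CPM in LFD, 539 to 573 in HFD and 417 to 442 in HFD + EC359. Erythroid markers, of which 6 of 7 tested rose with diet and 6 of 7 fell with EC359, summed to 120.2 to 130.1, 226 to 235 and 172 to 175 CPM. The globin pairs Hba-a1 and Hba-a2, and Hbb-b1 and Hbb-b2, had identical counts. Each pair entered the sum once, but the second gene of a pair was not dropped from the numbers of markers that rose or fell. Cycling-cell markers were also highest in HFD, at 1291 to 1389, 1594 to 1611 and 1374 to 1409 CPM. Of these 10, 6 rose and 2 fell with diet (4 rose and 3 fell with the GC and length trend removed), and 8 fell with EC359. Adipocyte markers stood at 30.5 to 33.6, 51.3 to 52.6 and 44.8 to 50.4 CPM, with 3 of 6 tested higher and 1 lower with diet, and 1 higher and 1 lower with EC359. None of these markers was without counts. Of all genes tested 26.0% rose and 25.8% fell with diet, and 12.7% rose and 13.9% fell with EC359. Over the 9 libraries and 9976 genes of at least 10 CPM, the genes whose centred log2 CPM lay nearest to that of Slc7a11 were Plat (root mean square difference 0.088), Ptprb (0.095) and Rgs5 (0.11). The part of other cell types in the Slc7a11 result was not tested.

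Gclc and Gclm encode the catalytic and modifier subunits of glutamate-cysteine ligase, which makes the first bond of glutathione. Gclc (chr9:77602342-77642296, plus strand) ranged from 42.5 to 51.1 CPM in LFD, 43.1 to 47.8 in HFD and 38.2 to 41.5 in HFD + EC359, so that the treated libraries lay below the 6 others, just under the lowest LFD library. Its change with EC359 was -0.16 ± 0.08 and missed the threshold (adjusted p = 0.133, 95% interval -0.32 to -0.00). With GC alone removed it passed (adjusted p = 0.0465). As counted it passed in HFD + EC359 against LFD (log2 change -0.22, adjusted p = 0.0228), a call lost without LFD replicate 1 (adjusted p = 0.12), LFD replicate 3 (0.0529) or HFD + EC359 replicate 3 (0.0839) and with library totals alone as the scale (-0.14, adjusted p = 0.13).

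Gclm (chr3:121948510-121969566, plus strand) was at 34.0, 29.5 and 36.5 CPM in LFD, 30.9, 35.9 and 28.6 in HFD and 24.9, 26.0 and 25.5 in HFD + EC359. LFD and HFD overlapped, and the treated libraries were below all 6 others. EC359 lowered it by 0.32 from HFD (log2 change -0.32 ± 0.10, adjusted p = 0.0107), a call lost without HFD replicate 2 (-0.23, adjusted p = 0.129). Against LFD the change was -0.38 (adjusted p = 0.00144), or -0.20 with the GC and length trend removed (adjusted p = 0.0964), for a gene of 56.1% GC. Of the next enzymes, glutathione synthetase Gss fell with diet (-0.35, adjusted p = 0.00522) and rose with EC359 (0.25, adjusted p = 0.0466). Neither call held with the trend removed (adjusted p = 0.14 and 0.06), and the rise also failed without HFD replicate 1 or 3 or any 1 of the treated libraries (adjusted p up to 0.167).

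Gpx4, the peroxidase that reduces lipid peroxides within membranes (chr10:79516255-79519184, plus strand), changed by small amounts. It was at 122, 122 and 137 CPM in LFD, 112, 111 and 114 in HFD and 122, 128 and 125 in HFD + EC359. HFD was below both other groups, which overlapped each other. The change with diet was -0.17 ± 0.05 (adjusted p = 0.00501) and that with EC359 was 0.15 ± 0.05 (adjusted p = 0.0164). Neither held throughout. The fall with diet did not pass without LFD replicate 3 (-0.12, adjusted p = 0.0796) and turned to 0.12 (adjusted p = 0.0543) with the GC and length trend removed, for a gene of 61.5% GC, and neither change passed with length alone removed (adjusted p = 0.0786 and 0.126). The rise with EC359 was lost when replicate 1 or 2 of HFD (adjusted p = 0.0608 and 0.0646) or replicate 2 or 3 of HFD + EC359 (0.0809 and 0.0614) was left out and by DESeq2 (0.0709). With the GC and length trend removed that rise was 0.22 (adjusted p = 0.000561). HFD + EC359 and LFD differed by -0.02 as counted (adjusted p = 0.746) and by 0.34 with the trend removed (adjusted p = 3.47e-07).

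Acsl4 encodes the ligase that loads arachidonic and adrenic acid for membrane lipids, a step that sensitizes cells to ferroptosis (chrX:138752536-138825078, minus strand). It was at 203, 236 and 220.5 CPM in LFD, 303, 297 and 297 in HFD and 290.5, 295 and 297 in HFD + EC359. Both high-fat groups lay above LFD, and they were nearly level with each other, the lowest HFD library just above the highest treated one. As counted, HFD exceeded LFD by 0.44 ± 0.04 (1.36-fold, adjusted p = 4.48e-10), and its log2 change with EC359 was -0.02 ± 0.04 (adjusted p = 0.74, 95% interval -0.11 to 0.06). The diet difference moved with base composition. Acsl4 had the lowest GC of the 10 genes, 39.0%, and after removal of the GC and length trend its change with diet was -0.00 (adjusted p = 0.975), that with EC359 was -0.16 (adjusted p = 0.000714) and that of HFD + EC359 against LFD turned from 0.42 to -0.16 (adjusted p = 0.00059).

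**Figure D2:**
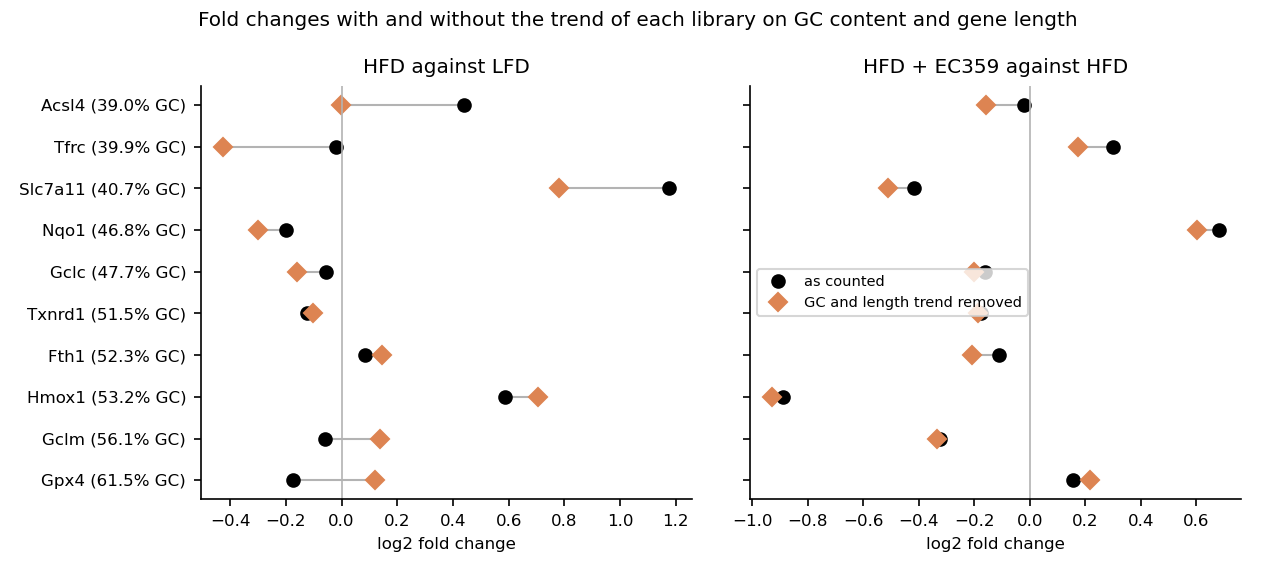
Log2 fold changes (horizontal axes) of the 10 genes, ordered by the GC content of their exons, as counted (circles) and with each library's trend on GC and length removed (diamonds), for HFD against LFD at left and HFD + EC359 against HFD at right. At left Acsl4 moves from 0.44 to -0.00, Tfrc from -0.02 to -0.43 and Slc7a11 from 1.18 to 0.78, while Hmox1 keeps its direction in both panels.

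Hmox1, heme oxygenase 1, breaks heme into iron, biliverdin and carbon monoxide (chr8:77617517-77624492, plus strand). Its libraries were at 124, 123 and 133 CPM in LFD, 189, 192 and 191 in HFD and 101, 106 and 101 in HFD + EC359. The 3 groups did not overlap, HFD was highest, and the treated tumors were below LFD as well as below HFD. The change with diet was 0.59 ± 0.05 on the log2 scale (adjusted p = 2.77e-12), and that with EC359 was -0.89 ± 0.04, a level 1.85-fold lower (adjusted p = 4.45e-17). HFD + EC359 differed from LFD by -0.30 ± 0.05 (adjusted p = 2.71e-06). With GC near the middle of all genes (53.2%), the gene gave 0.70, -0.93 and -0.22 after the trend was removed, and all 3 calls held in every fit made here.

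Markers of macrophages, which recycle heme, and of fibroblasts also moved in these tumors. Macrophage markers summed to 2073 to 2122 CPM in LFD, 2218 to 2249 in HFD and 2776 to 2799 in HFD + EC359. With diet 7 of 11 rose, the direction of Hmox1, and 2 fell, and with EC359 10 of 11 rose, the opposite direction to Hmox1. Cd163, the hemoglobin scavenger receptor, fell with diet by 0.52 and did not pass with EC359 (-0.04). Fibroblast markers summed to 7961 to 9381, 13822 to 14553 and 4190 to 4300 CPM, highest in HFD and lowest in HFD + EC359 as for Hmox1, with 10 of 10 higher with diet and, with EC359, 6 of 10 lower and 1 higher. Of 7 skeletal muscle markers tested 3 rose and 1 fell with diet and 1 rose and 3 fell with EC359, and of 3 T and NK cell markers tested 1 fell with diet and 1 rose with EC359. None was without counts. These marker counts stand beside 26.0% of all genes higher and 25.8% lower with diet, and 12.7% higher and 13.9% lower with EC359. The genes whose pattern lay nearest to that of Hmox1 were Col12a1 (root mean square difference 0.069), Atp2a1 (0.073) and Col27a1 (0.074), and the part of these cells in the result was not tested. Downstream of heme oxygenase, the biliverdin reductase Blvra did not pass with diet (-0.07), with EC359 (0.16) or against LFD (0.09), and Blvrb fell with diet by 0.30, a call lost without LFD replicate 2 or HFD replicate 2 (adjusted p up to 0.157).

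**Figure D3:**
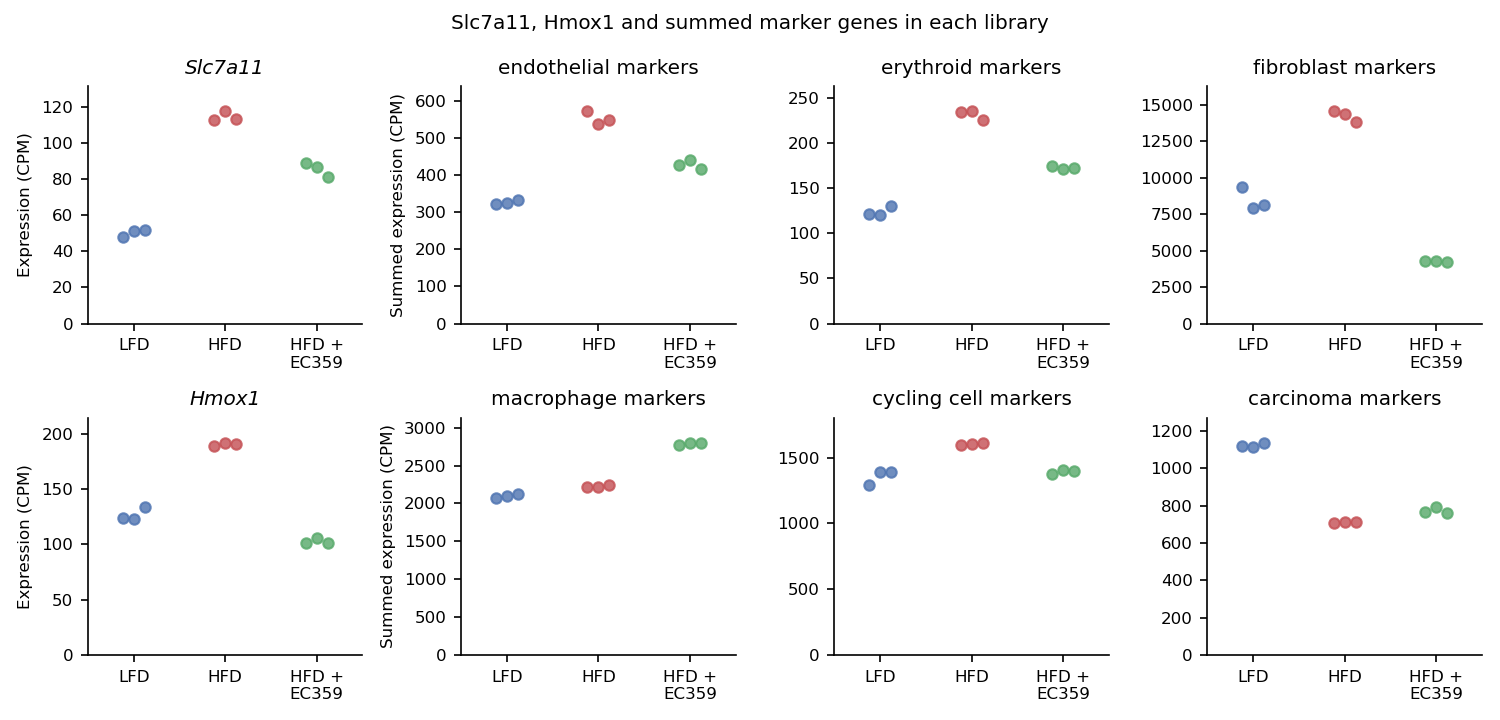
Slc7a11 and Hmox1 in CPM (left column) and the summed CPM of marker lists (other panels) in the 3 libraries of each group, on axes that start at 0. Slc7a11, endothelial and erythroid markers are highest in HFD and lowest in LFD, whereas Hmox1 and fibroblast markers are highest in HFD and lowest in HFD + EC359.

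Tfrc, transferrin receptor 1, brings iron into cells and carries the 4 hairpins shown above in its 3′ UTR (chr16:32608982-32632880, plus strand). It was at 71.8, 82.4 and 89.7 CPM in LFD, 82.1, 80.2 and 79.2 in HFD and 98.5, 102 and 97.2 in HFD + EC359. LFD and HFD overlapped, and every treated library was above all 6 others. EC359 raised it by 0.30 ± 0.06, 1.23-fold (adjusted p = 0.000117), a call that held in every fit. The other comparisons turned on base composition (39.9% GC). Its change with diet was -0.02 as counted (adjusted p = 0.804) and -0.43 once each library's GC and length trend was removed (adjusted p = 8.45e-08), its change with EC359 was 0.17 with the trend removed (adjusted p = 0.00909), and HFD + EC359 against LFD turned from 0.28 (adjusted p = 0.000157) to -0.25 (adjusted p = 0.000176). Nearest to it in pattern were S100a9 (root mean square difference 0.044), Narfl (0.057) and Cyp1b1 (0.058). S100a9 is a neutrophil gene. With EC359 4 of 6 neutrophil markers tested (1 fell) and 10 of 11 macrophage markers rose, as Tfrc did. Of erythroid markers, of cells that take up much iron, 6 of 7 fell, with the identical globin pairs not merged. Among all genes tested 12.7% rose and 13.9% fell with EC359. The part of these cells in the Tfrc result was not tested.

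Fth1, the ferritin heavy chain that oxidizes and stores iron (chr19:10057193-10059582, plus strand), had the highest level of the 10 genes per length, at 1057 ± 75.7 (SD, n = 3) CPM per kb in LFD, 1119 ± 19.8 in HFD and 1035 ± 44.1 in HFD + EC359. It ranged from 867 to 990.2 CPM in LFD, 950.1 to 983 in HFD and 853 to 922 in HFD + EC359, so that HFD was above HFD + EC359 and LFD overlapped both. The change with EC359, -0.11 ± 0.04 (adjusted p = 0.0256), was lost without HFD replicate 1, HFD replicate 2 or HFD + EC359 replicate 1 (adjusted p = 0.111, 0.0865 and 0.213), by DESeq2 (0.0545) and with library totals alone (-0.08, adjusted p = 0.0991), and it was -0.21 (adjusted p = 4.2e-05) once the GC and length trend was removed. The change with diet was 0.08 (adjusted p = 0.0684), and without LFD replicate 1, the library farthest from the others of its group (mean chi-square per gene 3.10 and 2.54, against 1.36 to 1.57 between other replicates), it was 0.14 (adjusted p = 4.58e-06). It also passed with that trend removed (0.15, adjusted p = 0.0021), with library totals alone (0.13, adjusted p = 0.0041) and with all genes of at least 1 count in the fit (0.09, adjusted p = 0.0157). Ftl1, the light chain, carries the same kind of hairpin in its 5′ UTR and rose with diet by 0.30 ± 0.03 (adjusted p = 4.25e-10) and fell with EC359 by 0.20 (adjusted p = 4.39e-06), from 1327 to 1417 CPM in LFD to 1656 to 1705 in HFD and 1448 to 1497 in HFD + EC359.

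Slc40a1, ferroportin, the exporter of iron, followed the same order. It was at 43.2 to 47.1 CPM in LFD, 81.2 to 84.1 in HFD and 63.5 to 71.8 in HFD + EC359, with no overlap between groups, a rise of 0.88 ± 0.07 with diet (adjusted p = 1.41e-12) and a fall of 0.30 with EC359 (adjusted p = 0.000181). Of the 3 genes shown with a 5′ hairpin, Ftl1 and Slc40a1 rose with diet, while Fth1 did not pass as counted and passed in the alternatives just given. With EC359 Ftl1 and Slc40a1 fell, Fth1 fell with the losses of its call given above, and Tfrc, with its 3′ hairpins, rose. Of all genes 26.0% were higher with diet, and with EC359 13.9% were lower and 12.7% higher. Other genes with such hairpins were not looked at as a group, and the part of the hairpins in these RNA levels was not tested.

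Nqo1, the quinone reductase often read as a sign of NRF2 activity (chr8:109912125-109927105, minus strand), was the least abundant of the 10. Its counts ran from 7 to 31 per library, or 1.64, 2.20 and 2.11 CPM in LFD, 2.14, 0.917 and 2.18 in HFD and 3.76, 2.14 and 2.60 in HFD + EC359. The groups overlapped in all comparisons. Its change was -0.20 with diet (95% interval -0.97 to 0.57) and 0.68 with EC359 (0.04 to 1.32, adjusted p = 0.115), so that neither a change nor its absence was detectable at this depth.

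Txnrd1, the cytosolic thioredoxin reductase, a selenoprotein (chr10:82296696-82360469, plus strand), was abundant and fell in steps. It was at 282, 285 and 290.1 CPM in LFD, 271, 256 and 259.9 in HFD and 234, 236 and 227 in HFD + EC359, with no overlap between any 2 groups. The change with diet was -0.12 ± 0.04 (adjusted p = 0.00914), lost without HFD replicate 2 (-0.11, adjusted p = 0.0546), with library totals alone (-0.08, adjusted p = 0.085) and with GC alone removed (-0.09, adjusted p = 0.0527). That with EC359 was -0.17 ± 0.04 (adjusted p = 0.000772), and HFD + EC359 was below LFD by -0.30 ± 0.04 (adjusted p = 8.27e-08), calls that held in every fit. Its GC content was 51.5%, and after removal of the GC and length trend the changes were -0.10, -0.19 and -0.29.

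**Figure D4:**
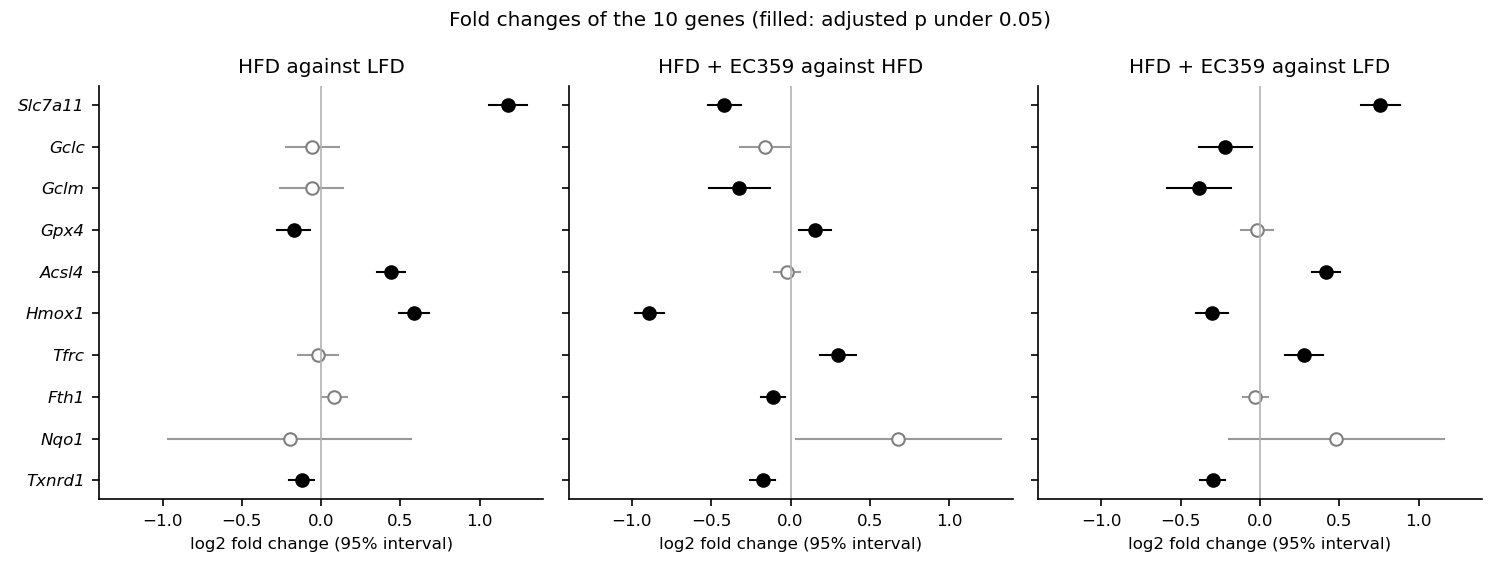
Log2 fold changes with 95% intervals (horizontal axes) of the 10 genes in the 3 comparisons, from edgeR, with filled points for an adjusted p under 0.05. Slc7a11 at 1.18 with diet and Hmox1 at -0.89 with EC359 lie farthest from 0, and the interval of Nqo1 is the widest.

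Counted by groups that did not overlap, 5 of the 10 genes separated HFD from LFD (57.1% of all genes tested), 9 separated HFD + EC359 from HFD (41.3%) and 7 separated HFD + EC359 from LFD (62.9%). Acsl4 was among the 9 only by a near tie, with its lowest HFD library at 296.559 CPM and its highest treated library at 296.551. Ordered by level per length in HFD, Fth1 came first, then Hmox1 at 121 ± 0.993 CPM per kb, Gpx4 at 93.6 ± 0.878, Txnrd1 at 65.3 ± 1.91, Acsl4 at 56.6 ± 0.657, Gclm at 21.6 ± 2.53, Tfrc at 16.4 ± 0.301, Gclc at 13.1 ± 0.774, Slc7a11 at 12.4 ± 0.291 and Nqo1 at 1.13 ± 0.463 (SD, n = 3). Gclc and Slc7a11 were neighbours whose ranges overlapped (12.6 to 14.0 and 12.2 to 12.8), and the other neighbours did not overlap. In LFD Slc7a11 stood at 5.48 ± 0.254, under Gclc at 13.7 ± 1.26, and Hmox1 at 80.5 ± 3.63 stood under Gpx4 at 106 ± 7.21.

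The wider machinery was read from 8 lists that held 195 other genes of the files, 186 of them tested. With diet 41 rose and 56 fell, 52.2% beside 51.8% of all genes. With EC359 32 rose and 26 fell, 31.2% beside 26.6%, and against LFD 43 were higher and 62 lower in HFD + EC359, 56.5% beside 58.3%. These shares lay near those of all genes, and the medians of -0.05, 0.02 and -0.01 were close to the 0.01 of all genes. The balance of directions moved with the fit. With the GC and length trend removed 37 rose and 54 fell with diet, and 26 rose and 38 fell with EC359. Against LFD 46 were then higher and 69 lower. With library totals alone 38 rose and 20 fell with EC359. The counts of each list given next stand beside 26.0% of all genes higher and 25.8% lower with diet, and 12.7% higher and 13.9% lower with EC359.

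**Figure D5:**
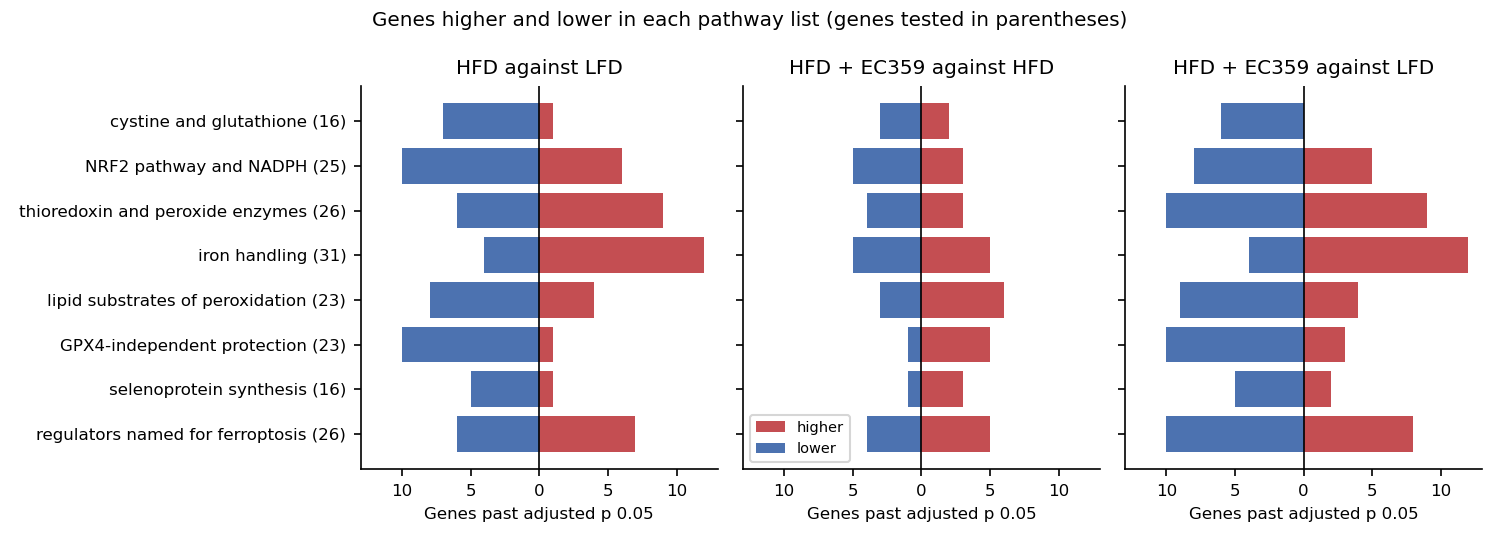
Numbers of genes higher (right of 0) and lower (left of 0) at an adjusted p under 0.05 in each of 8 pathway lists, for the 3 comparisons, with the number tested in parentheses and the 10 genes above left out. Iron handling has 12 higher and 4 lower with diet, and GPX4-independent protection has 1 higher and 10 lower, where 26.0% of all genes were higher and 25.8% lower.

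NRF2 and its partners did not move as 1 block. The transcript of NRF2 itself, Nfe2l2, rose with diet by 0.60 ± 0.06 (adjusted p = 5.84e-10) and again with EC359 by 0.24 (adjusted p = 0.000654), from 52.6 to 60.6 CPM in LFD to 87.9 to 88.9 in HFD and 102 to 106 in HFD + EC359, with no overlap. Keap1, which marks NRF2 for degradation, fell with diet by 0.36 (adjusted p = 4.44e-07), and Bach1, which represses Hmox1, fell by 0.23 (adjusted p = 0.000508), and neither passed with EC359 (-0.06 and -0.00). Of the 25 genes tested in the list of NRF2 and NADPH genes, 6 rose and 10 fell with diet and 3 rose and 5 fell with EC359, with medians of -0.10 and 0.08. The largest with diet were Gstm1 (0.79) and Ephx1 (0.70), which conjugate and hydrolyze electrophiles, and with EC359 Aldh3a1 (0.66), an aldehyde dehydrogenase, and Ugdh (-0.37), which makes UDP-glucuronate.

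In the cystine and glutathione list 1 of 16 genes rose and 7 fell with diet, and 2 rose and 3 fell with EC359, with medians of -0.18 and 0.02. The largest with diet were Ggct (-1.20) and Oplah (-0.88), which break down the gamma-glutamyl residues of glutathione and recycle 5-oxoproline. The gene that rose with diet as counted was Ggt5, a gamma-glutamyl transferase of the cell surface. It changed by 0.49 with diet and -0.60 with EC359, and its call with diet was lost without HFD replicate 3 (0.33, adjusted p = 0.0869).

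Among thioredoxin and peroxide enzymes 9 of 26 genes rose and 6 fell with diet, and 3 rose and 4 fell with EC359, with medians of 0.07 and -0.06. Gpx8, of the endoplasmic reticulum, rose with diet by 0.87 (adjusted p = 4.72e-08). Gpx3, the secreted peroxidase, went from 28.7 to 32.1 CPM in LFD to 49.6 to 51.7 in HFD and 23.0 to 25.8 in HFD + EC359, a rise of 0.76 and a fall of 1.06 (adjusted p = 6.09e-09 and 2.58e-12). Sod3, the extracellular superoxide dismutase, rose at both steps, by 0.69 and 0.70 (adjusted p = 2.83e-10 and 1.98e-12).

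Of 31 other iron genes 12 rose and 4 fell with diet and 5 rose and 5 fell with EC359, with a median of 0.06 for each. Lcn2, lipocalin 2, which binds iron-laden siderophores, was the largest with diet at 1.33 ± 0.08 (adjusted p = 1.14e-15), from 32.3 to 43.6 CPM in LFD to 94.8 to 105 in HFD, and stayed at 106 to 118 with EC359. Steap4, a metalloreductase, changed by 0.82 with diet and -0.59 with EC359, and Hp, haptoglobin, rose by 0.41 with EC359 (adjusted p = 0.0064), a call lost without HFD replicate 1 or 2 (adjusted p up to 0.0606). Hp is also made by myeloid cells, among which neutrophil markers summed to 105 to 126 CPM in LFD, 141 to 153 in HFD and 170.1 to 178 in HFD + EC359.

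In the list of lipid substrates 4 of 23 genes rose and 8 fell with diet, and 6 rose and 3 fell with EC359, with medians of -0.10 and 0.06. Scd1, which makes the monounsaturated fatty acids that resist peroxidation, fell with diet by 1.32 ± 0.05 (adjusted p = 1.28e-19) and rose with EC359 by 0.51 (adjusted p = 7.32e-09), from 159 to 176 CPM in LFD to 64.7 to 70.6 in HFD and 93.2 to 101 in HFD + EC359. Elovl5, an elongase of polyunsaturated fatty acids, rose with diet by 0.58 (adjusted p = 3.05e-06). With EC359 the largest were Alox12b, the lipoxygenase of the skin barrier (1.45), and Mboat2, an acyltransferase (0.67). Alox12b was at only 0.262 to 0.883 CPM in HFD, and its call was lost without HFD replicate 2 or HFD + EC359 replicate 2 (adjusted p up to 0.112).

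GPX4-independent protection, which covers the ubiquinone, tetrahydrobiopterin and vitamin K routes, had 1 of 23 genes higher and 10 lower with diet (26.0% and 25.8% of all genes) and 5 higher and 1 lower with EC359 (12.7% and 13.9%), with medians of -0.24 and -0.02. Once the GC and length trend was removed the counts were 1 higher and 8 lower with diet and 3 higher and 2 lower with EC359. Aifm2, which encodes FSP1, a reductase of ubiquinone and vitamin K, did not pass (-0.10 and 0.04). Spr, of tetrahydrobiopterin synthesis, fell at both steps by 0.59 and 0.32, and Vkorc1l1, a vitamin K epoxide reductase, rose with EC359 by 0.70 (adjusted p = 0.000352). Prom2, a membrane protein linked to the export of ferritin, changed most, by -2.95 with diet and 2.02 with EC359, from 8.39 to 13.4 CPM in LFD to 0.757 to 1.96 in HFD and 4.40 to 7.03 in HFD + EC359. Epidermal markers moved with Prom2 and Alox12b. They summed to 1170 to 1342, 190.2 to 205 and 589.6 to 601 CPM, with 9 of 11 lower with diet and 10 of 11 higher with EC359 and none without counts, and their part was not tested.

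Selenoprotein synthesis, which supplies GPX4 and TXNRD1, had 1 of 16 genes higher and 5 lower with diet and 3 higher and 1 lower with EC359, with medians of -0.04 and 0.04. Sepp1, the selenium carrier selenoprotein P, rose at both steps by 0.61 and 0.68 (adjusted p = 1.8e-11 and 1.3e-13), from 113 to 139 CPM in LFD to 304 to 322 in HFD + EC359, and its receptor Lrp8 fell with diet by 0.38 (adjusted p = 7.8e-06). Sep15 fell with diet by 0.26, and Scly, which frees selenium from selenocysteine, and Secisbp2l rose with EC359 by 0.30 and 0.23, the call on Scly being lost without HFD replicate 1 (adjusted p = 0.103). Of 26 other regulators named for ferroptosis 7 rose and 6 fell with diet and 5 rose and 4 fell with EC359, with medians of -0.02 and -0.04. Trib3, a pseudokinase of the ATF4 response, and Mdm4, an inhibitor of p53, were the largest with diet (-0.87 and 0.66). Hspb1, a small heat shock protein (0.91, at 4.06 to 5.18 CPM in HFD), and Ptgs2, often used as a transcript marker of ferroptosis (-0.33 after 0.57 with diet), were the largest with EC359. With the GC and length trend removed, the log2 change with diet moved by over 1.5 times and still passed for Keap1 (-0.13), Bach1 (-0.40), Ftl1 (0.53), Spr (-0.33), Sepp1 (0.41), Sep15 (-0.45), Mdm4 (0.38) and Ptgs2 (0.19), and it no longer passed for Ddit4 (-0.07, adjusted p = 0.225) and Blvrb (-0.06, adjusted p = 0.707).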

How the data were processed

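The 9 tumor libraries were stranded mRNA libraries sequenced with paired reads of 150 bp. The authors deposited expected counts per gene without normalization: per the file headers featureCounts v1.5.0-p1 split read pairs over several genes or alignments into fractions, on mm9, at a mapping quality of at least 2. The submitters' processing notes name HISAT2 2.1.0, and the study's methods name TopHat2 and HTSeq, so the aligner of these files is not settled. Fractions fell in 1.19% to 3.55% of genes, and values were rounded to whole numbers. Groups were taken from the sample titles, 3 libraries each.

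Genes kept by filterByExpr were normalized by TMM and tested with edgeR 4.0.16 (R 4.3.3) by the quasi-likelihood test in 1 model of 3 groups, with Benjamini-Hochberg adjustment over all 13366 genes, and called at an adjusted p under 0.05. The study's methods name DESeq, whose successor DESeq2 1.42.0 was an alternative. An exact permutation test of 3 against 3 libraries cannot go below 0.1 and was not used. The fits were tested on simulated data. GC content was read from mm9 exons, and trends on GC and length were fitted with mgcv 1.9.3 and removed as offsets. Other alternatives were RLE factors, library totals, 2 filters, fractional counts, the 6 libraries of a comparison alone, the replicate number as a block and leaving out each library. GC alone and length alone were added after seeing the data. Replicates of a group differed by 1.36 to 3.10 in mean chi-square per gene, so none was counted as a duplicate.

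The 10 genes and the 8 pathway and 11 marker lists were chosen with earlier results of these data known. Named by rule besides the 10 genes were 8 regulators and partners, the 2 genes of each list with the largest change among those called with groups that did not overlap, for diet and for EC359, and for Slc7a11, Hmox1 and Tfrc the 3 genes nearest in centred log2 CPM. Single genes of the marker lists were named as well. Outside the rule, Atf4, Chac1, Ddit4 and Sesn2 were picked after their values were seen, and Blvra and Blvrb were added. Hairpins were sought in GENCODE M1 transcripts on NCBIM37, the assembly of mm9.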

Additional observations from a re-analysis of the deposited data

How the results depend on the processing

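Of 30 results (10 genes in 3 comparisons), 16 kept their direction and side of the threshold in all 17 fits that removed no GC or length trend, and 11 in every fit, the trends included. RLE factors, fractional counts and the 6 libraries alone changed no call among the 30. Against 5, 7 and 7 genes called, the stricter rule of a fold over 2 and adjusted p under 0.01 left 1, 0 and 0, and of the other pathway genes it left 4, 2 and 4 in place of 97, 58 and 105. Leaving out 1 library gave 4 to 6 calls with diet, 4 to 7 with EC359 and 6 to 7 against LFD, with the lowest for EC359 without HFD replicate 2. The replicate number as a block gave 5, 7 and 7 genes and 98, 56 and 106 pathway genes and changed no call among the 30. The numbers mark no shared animal or batch in the labels, and same-numbered libraries had correlations of -0.04 to 0.17 in their deviations over 6524 genes, not each best with its own number.

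Signs turned in these cases. With both trends removed, Gpx4 with diet was at 0.12, Acsl4 with diet at -0.0018 and Gclm with diet at 0.14, and against LFD Gpx4 was at 0.34, Acsl4 at -0.16 and Tfrc at -0.25. With GC alone removed, Gpx4 and Gclm with diet were at 0.11 and 0.12, and against LFD Gpx4 was at 0.36, Acsl4 at -0.16, Tfrc at -0.25 and Fth1 at 0.0086, and with length alone removed Gclm with diet was at 0.0017. With library totals, Tfrc with diet was at 0.022, Acsl4 with EC359 at 0.0093, and against LFD Gpx4 at 0.055 and Fth1 at 0.047. With 1 library left out, the log2 change with diet ran from -0.38 to 0.11 for Nqo1 (highest without HFD replicate 2), -0.13 to 0.0069 for Gclc (LFD replicate 1), -0.16 to 0.013 for Gclm (LFD replicate 3, and 0.0047 without HFD replicate 3) and -0.094 to 0.053 for Tfrc (LFD replicate 3). Against LFD it ran from -0.060 to 0.038 for Gpx4 (LFD replicate 3) and -0.075 to 0.030 for Fth1 (LFD replicate 1, and 0.0057 without HFD + EC359 replicate 1). The cause of these turns was not tested.

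Depth limited Nqo1 most, and with at least 10 counts required in every library it was not in the fit. The GC trend and the group cannot be told apart, since each group's libraries lay together on it.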
